A study of Mus musculus with 8 samples.

Results

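The Cfap genes, named for cilia and flagella associated proteins, were taken as every gene of the deposited testis expression table whose symbol begins with Cfap followed by a digit. They numbered 31 of the 19906 genes in the table. Testes were compared between 4 Tmem232-/- and 4 Tmem232+/+ mice, all 2 months old, with 1 RNA-seq library for each mouse and no other treatment or allele given in the labels. The Tmem232-/- mice carry a CRISPR-Cas9 deletion of Tmem232, which codes for a transmembrane protein, between its introns 4 and 8 in every cell of the body, made in C57BL/6 oocytes, so germ cells and somatic cells of the testis carry it alike. Whole testis holds all stages of spermatogenesis, and in such bulk RNA a change in the number of cells of a type cannot be told apart from a change in RNA per cell.

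A sperm flagellum is built around the axoneme, a ring of microtubule doublets around a central pair. Dynein arms on the doublets produce sliding, radial spokes and the central apparatus control it, and proteins lining the inside of the doublets hold the tubules firm during beating. CFAP proteins are found in all of these structures, and in mouse testis many of their genes are switched on in meiotic and haploid germ cells, before and during flagellum assembly. Loss of several of them is a known cause of sperm with short, bent or absent flagella.

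Total counts lay between 15428421 and 16350871 per library. Tmem232 itself had 122 to 148 CPM (counts scaled to a common library size, after TMM normalisation) in the libraries labelled Tmem232-/- and 106 to 111 in the others, a log2 fold change of 0.27 (SE 0.0721, edgeR adjusted p = 0.0335). The targeted gene was thus higher under the knockout label. Its count covers the whole gene, exons outside the deleted part included, so it does not check the labels, and the groups are called -/- and +/+ by label throughout. Whether labels were exchanged, which would turn every direction given here round, was not tested. Germ cell and somatic markers were both present. All 8 round spermatid and all 10 elongating spermatid markers were higher in the -/- libraries, with summed levels of 514 to 701 against 212 to 337 CPM and of 1335 to 2207 against 340.0 to 687 CPM. Of 8 spermatogonial markers 3 were lower (summed 193 to 211 against 233 to 261 CPM), as were 1 of 8 spermatocyte and 2 of 5 peritubular markers. None of the Sertoli, Leydig, macrophage, endothelial or red blood cell markers passed. Of the 6 epididymal markers 5 were in the table, none of the 2 tested passed, and their summed level was 5.63 to 13 against 5.93 to 39.5 CPM. The part of these cell types in the results on Cfap genes was not tested.

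The promoters of the 4 Cfap genes with the largest rises are shown first, since these genes carry the main result. They come from RefSeq (GRCm38.p6) and run from 250 bases before to 50 bases after a start of transcription in that annotation, 5′ to 3′ along the gene. A gene can have several starts. Some windows belong to starts inside the span of the gene, not at its outermost end. Among those printed or found with a motif below, these are the windows of Cfap100, Cfap206, Cfap44, Cfap61, Cfap74, Cfap161, Cfap46 and Cfap97d2. The promoter of Cfap97d1 lies at chr11:101986806-101987105 on the plus strand and that of Cfap100 at chr6:90428431-90428730 on the minus strand. Those of Cfap77 and Cfap58 lie at chr2:29055017-29055316 (minus) and chr19:47937462-47937761 (plus). Capitals mark the motif GTTGCC, an arm of the X-box, the element that RFX factors of ciliary genes recognise.
Cfap97d1: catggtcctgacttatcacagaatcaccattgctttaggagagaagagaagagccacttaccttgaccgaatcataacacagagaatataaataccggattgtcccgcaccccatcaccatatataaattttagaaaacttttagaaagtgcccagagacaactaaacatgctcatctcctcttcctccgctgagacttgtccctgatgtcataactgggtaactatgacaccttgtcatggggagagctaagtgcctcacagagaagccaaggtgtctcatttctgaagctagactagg
Cfap100: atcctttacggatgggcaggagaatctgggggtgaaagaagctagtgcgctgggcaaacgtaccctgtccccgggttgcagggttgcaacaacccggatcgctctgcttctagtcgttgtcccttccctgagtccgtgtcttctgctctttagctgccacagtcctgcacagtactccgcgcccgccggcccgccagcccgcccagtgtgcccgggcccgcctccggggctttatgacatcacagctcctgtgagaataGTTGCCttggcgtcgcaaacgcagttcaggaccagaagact
Cfap77: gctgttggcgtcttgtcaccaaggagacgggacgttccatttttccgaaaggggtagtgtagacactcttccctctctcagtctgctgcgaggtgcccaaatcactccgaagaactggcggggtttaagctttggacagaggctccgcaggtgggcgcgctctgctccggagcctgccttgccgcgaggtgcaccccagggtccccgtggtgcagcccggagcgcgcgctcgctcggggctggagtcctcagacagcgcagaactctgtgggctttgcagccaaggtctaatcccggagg
Cfap58: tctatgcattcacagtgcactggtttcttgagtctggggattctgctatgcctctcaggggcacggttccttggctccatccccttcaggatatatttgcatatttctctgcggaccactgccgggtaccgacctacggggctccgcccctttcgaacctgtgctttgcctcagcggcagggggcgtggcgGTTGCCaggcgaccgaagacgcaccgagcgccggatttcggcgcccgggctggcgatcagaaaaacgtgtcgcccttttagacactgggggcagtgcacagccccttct

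GTTGCC was found at 9 bases after this start in Cfap100 and at position -59 in Cfap58, counted from the start as position 0, and not in the windows of Cfap97d1 and Cfap77. A promoter was matched by symbol for 24 of the 31 members. Searched on both strands, GTTGCC occurred in 10 of these 24 (41.7%), against 14.1% of the 27025 genes with a RefSeq promoter and 15.8% of those that were also tested. The full-length X-box motif, which can contain GTTGCC, occurred in 5 of 24 (20.8%), against 2.49% of all genes with a promoter and 3.25% of the tested ones. The cyclic AMP response element TGACGTCA and its core TGACGT, which is part of it, were in none of the 24 windows. They were in 2.03% and 8.37% of all genes with a promoter and in 3.22% and 11.7% of the tested ones. A promoter was matched for 6 of the Cfap genes that rose, and none of the 5 long matches belongs to these 6. For this reason the 5 matches are printed with 10 bases on each side. They lie in the promoters at chr4:34730157-34730456 (Cfap206, minus), chr16:90934800-90935099 (Cfap298, minus), chr16:44394549-44394848 (Cfap44, plus), chr1:172520880-172521179 (Cfap45, plus) and chr2:145934534-145934833 (Cfap61, plus), with the match in capitals.
Cfap206: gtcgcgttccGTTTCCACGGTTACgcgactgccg
Cfap298: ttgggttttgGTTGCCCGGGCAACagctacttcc
Cfap44: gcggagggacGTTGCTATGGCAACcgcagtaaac
Cfap45: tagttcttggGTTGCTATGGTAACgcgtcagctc
Cfap61: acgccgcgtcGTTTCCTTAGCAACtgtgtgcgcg

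The matches began within 27 bases before the start in Cfap206 (-23), Cfap44 (-27), Cfap45 (-19) and Cfap61 (-8), and at -188 in Cfap298. The matches in Cfap298 and Cfap44 overlapped occurrences of the shorter motif. In Cfap206, Cfap44 and Cfap45 the match lies on the strand opposite to the gene, so the capitals show the reverse complement of the motif. These are matches of letters only.

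Cfap genes covered a wide range of levels in testis. By the deposited expression values, taken as FPKM, which divides by transcript length and so allows genes to be compared, Cfap36 was highest, with 490 ± 62.8 in the -/- and 484 ± 77.9 in the +/+ libraries (SD, n = 4 each). Cfap36 binds the small GTPase ARL3. Its FPKM in replicates 1 to 4 was 562, 429, 447 and 522 in the -/- and 443, 434, 599.7 and 459 in the +/+ libraries, so the ranges of the groups overlapped. Cfap206, which docks a radial spoke and an inner dynein arm on the doublet, followed with 371, 400.0, 393 and 323 against 352, 317, 284 and 332. Cfap298, a factor for the assembly of dynein arms in the cytoplasm, came next with 246, 201, 206 and 248 against 227, 204, 304 and 224. The order of Cfap206 above Cfap298 held in 7 of the 8 libraries, with +/+ replicate 3 as the exception. Between 2.11 and 137 FPKM lay the means of the other tested members, with Cfap45, Cfap97, Cfap65, Cfap126, Cfap299, Cfap20, Cfap69, Cfap161, Cfap70, Cfap57, Cfap300, Cfap52, Cfap53, Cfap43 and Cfap74 at or above 47.8 FPKM. Neighbours in this order mostly differed by less than the spread between libraries, as with Cfap45 (137) and Cfap97 (136).

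At the low end, Cfap73 had 1.98, 1.91, 1.75 and 1.90 FPKM in the -/- and 3.10, 1.93, 2.16 and 2.17 in the +/+ libraries, from as few as 21 counts. Cfap77 followed with a mean of 5.94 FPKM and Cfap61 with 6.25. Cfap97d2, a relative of Cfap97d1, had between 4 and 8 counts per library and 0.05 to 0.26 FPKM. It did not pass the filter on low counts and was not tested in the main fit. The other 30 had at least 21 counts in every library, so none of them passed the filter through a single label.

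**Figure D1:**
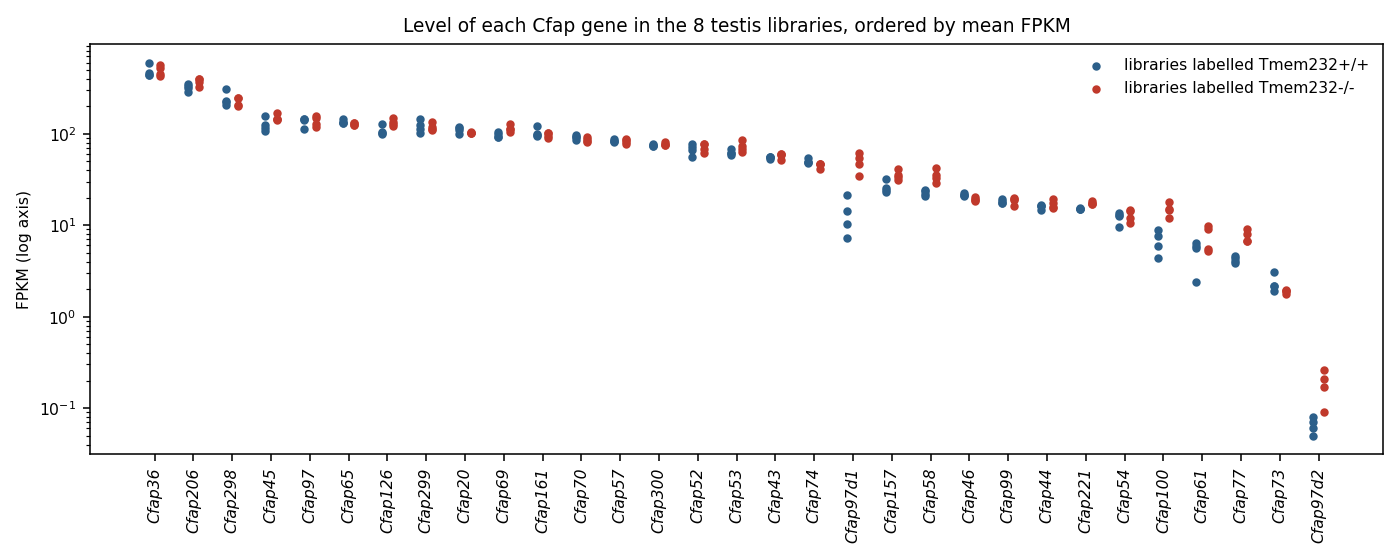
FPKM (log axis) of the 31 Cfap genes in each of the 8 libraries, ordered by mean FPKM, with +/+ libraries in blue and -/- libraries in red. Cfap36 is highest at 434 to 599.7 FPKM in the +/+ libraries and Cfap97d2 lowest at 0.05 to 0.08, and the labels separate clearly for Cfap97d1, Cfap100, Cfap77 and Cfap58.

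In the comparison of the labels, the question was which of these genes differ between testes labelled Tmem232-/- and Tmem232+/+. Of the 30 tested Cfap genes, 7 were higher in the -/- libraries and 0 lower at an adjusted p under 0.05 (edgeR quasi-likelihood test, Benjamini-Hochberg over 15787 genes), and 23 did not pass. The 7 genes were Cfap97d1, Cfap100, Cfap77, Cfap58, Cfap157, Cfap126 and Cfap221. This is 23.3% of the members, beside 10.3% of all tested genes called higher and 1.46% called lower. At an unadjusted p under 0.05, 11 members were higher and 0 lower, beside 14.6% and 10.5% of all tested genes, and 2 were lower at that limit with library size alone as the scaling, 1 with FPKM and 1 without -/- replicate 2. DESeq2 and limma-voom also called 0 lower at an adjusted p under 0.05. With a minimum of 2-fold and unadjusted p under 0.05, Cfap97d1 and Cfap100 were higher. These 2 of 30 members are near the 5.48% of all tested genes called higher by that rule. None was lower, and of all 15787 tested genes only 18 were. The median log2 fold change of the 30 genes was 0.11, against -0.05 for all tested genes, with 22 values above and 8 below 0. Leaving out -/- replicate 1, +/+ replicate 2 or +/+ replicate 4 left 4 members called higher, and leaving out +/+ replicate 1 moved the median to 0.21.

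Cfap97d1 (Entrez 75437, chr11:101987056-101992264), which is needed for an ordered axoneme in mouse sperm, rose most. Its CPM in replicates 1 to 4 was 33.6, 24.5, 18.2 and 28.5 in the -/- and 5.61, 3.69, 11.1 and 7.43 in the +/+ libraries. The lowest -/- library lay well above the highest +/+ library, which was replicate 3. The means of 26.2 ± 6.53 and 6.97 ± 3.18 CPM differed 3.76-fold, a log2 fold change of 1.91 (SE 0.283, edgeR adjusted p = 0.000724).

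Cfap100 (Entrez 243538, chr6:90403731-90429768) codes for a partner of CFAP73 in a complex that modifies the inner dynein arms. It had 37.1, 32.3, 25.9 and 28.0 CPM in the -/- and 12.6, 8.96, 16.6 and 15 CPM in the +/+ libraries. The labels were fully separated, and the log2 fold change was 1.21 (SE 0.176, edgeR adjusted p = 0.00062). Its exons overlap those of Zxdc on the opposite strand over 0.291% of their bases, and the strand setting of the counting is not given in the sources used here.

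Cfap77 (Entrez 329375, chr2:28955481-29055066) codes for a protein inside the B tubule of the doublet and is expressed at a low level. It had 9.38, 6.65, 8.35 and 6.52 CPM in the -/- and 4.30, 3.94, 3.86 and 4.30 CPM in the +/+ libraries. The +/+ libraries were close together (4.10 ± 0.233 CPM) and each -/- library lay above them, at 7.73 ± 1.38 CPM. The log2 fold change was 0.91 (SE 0.147, edgeR adjusted p = 0.00131).

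Cfap58 (Entrez 381229, chr19:47937712-48035379) codes for a coiled-coil protein whose loss gives malformed sperm flagella. Its CPM was 139, 115, 105 and 89.2 in the -/- and 70.2, 63.6, 74.5 and 73.3 in the +/+ libraries. All -/- libraries lay above all +/+ libraries, with replicate 4 the lowest of the -/- libraries. The log2 fold change was 0.67 (SE 0.119, edgeR adjusted p = 0.00262). For each of these 4 genes the exact two-sided permutation test of mean CPM gave an unadjusted p of 0.029, the smallest that 4 against 4 libraries allow. Full separation of the labels fixes this p, so it adds nothing to the separation. Cfap157, Cfap221, Cfap300 and Cfap46, described below, had the same p.

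The other 3 called genes moved by smaller amounts, and their values per library are given because they passed the test. Cfap157, needed for the sperm tail, had 63.4, 50.7, 47.9 and 53.0 CPM in the -/- and 37.4, 33.4, 46.9 and 37.5 CPM in the +/+ libraries (log2 fold change 0.47, SE 0.115, edgeR adjusted p = 0.020). The labels did not overlap, but +/+ replicate 3 came within about 1 CPM of the lowest -/- library. Cfap221, part of the C1d projection of the central apparatus, had 48.9, 50.02, 47.0 and 45.5 against 41.6, 39.6, 39.8 and 39.7 CPM (log2 fold change 0.25, SE 0.0625, edgeR adjusted p = 0.0212). Here the change was small and the libraries of each label were close together. Cfap126, also called Flattop, a protein of the doublet lumen that also acts at basal bodies, had 122, 101, 97.6 and 105 against 82.3, 75.9, 99.0 and 80.9 CPM (log2 fold change 0.33, SE 0.0965, edgeR adjusted p = 0.0474). Its -/- replicate 3 lay below +/+ replicate 3, so the labels overlapped.

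The 7 calls were not equally firm. Cfap97d1, Cfap100, Cfap77 and Cfap58 passed under all 17 other settings tried, which include each library left out in turn. Cfap157 passed under 13 and lost its call without -/- replicate 1 (edgeR adjusted p = 0.0607), +/+ replicate 2 (0.0596) or +/+ replicate 4 (0.0658), and with the replicate number as a block (0.0511). Cfap221 passed under 12 and lost its call without -/- replicate 1 (edgeR adjusted p = 0.0596), -/- replicate 2 (0.0765), +/+ replicate 2 (0.0591) or +/+ replicate 4 (0.0771), and with the block (0.124). Cfap126 passed under 8 of 17, with edgeR adjusted p-values between 0.0726 and 0.133 in the 6 fits that left out a library and lost the call, which were all but those without -/- replicate 3 or +/+ replicate 3. It also lost its call with library size alone as the scaling (adjusted p = 0.0711), with FPKM and limma (0.0789) and with the block (0.114).

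**Figure D2:**
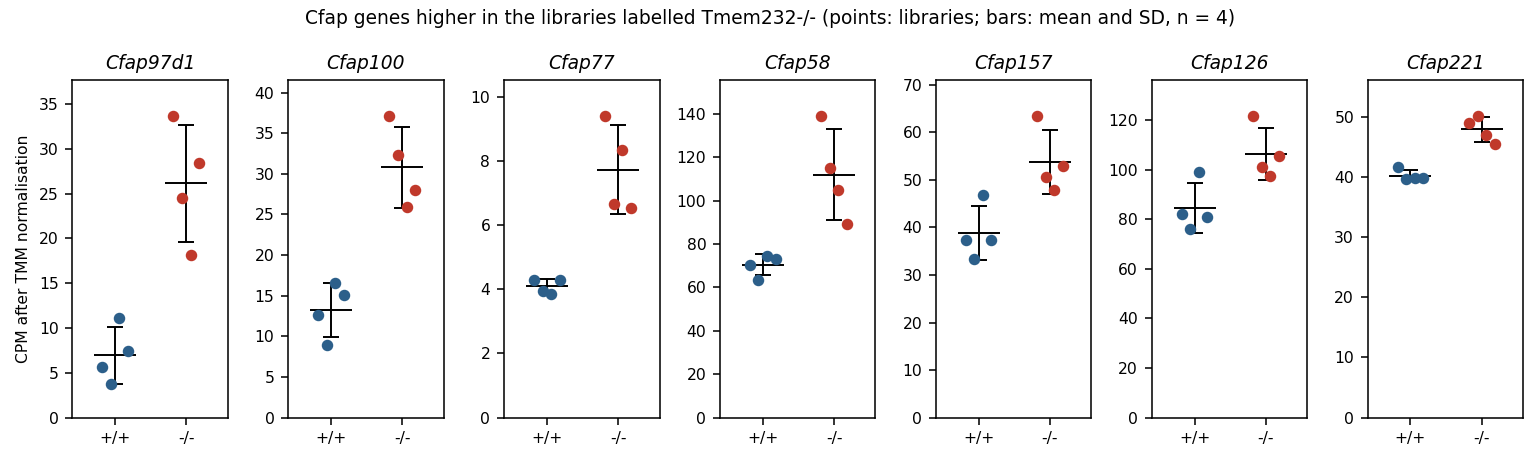
CPM after TMM normalisation of the 7 Cfap genes called higher, by label, with libraries as points and mean and SD (n = 4) as bars on axes that start at 0. The labels are separated for 6 of the 7 genes, and for Cfap126 the lowest -/- library (97.6 CPM) lies below the highest +/+ library (99.0 CPM).

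No overlap between the labels was found for 7 tested members with the -/- libraries above, beside 11.8% of all tested genes, and for 1 member with them below, beside 6.88% of all tested genes. The first were the called genes without Cfap126, and Cfap300, a factor for the assembly of dynein arms. The values of Cfap300 and of the lower gene, Cfap46, are given because of this. Cfap300 had 108, 105, 113 and 105 CPM in the -/- and 105, 103, 101 and 101 CPM in the +/+ libraries, a log2 fold change of 0.08 (edgeR adjusted p = 0.449). Cfap46, part of the C1d projection like Cfap221, had 156, 165, 156 and 146 against 173, 166, 174 and 166 CPM, a log2 fold change of -0.13 (edgeR adjusted p = 0.239). In both, the gap between the labels was about 1 CPM or less.

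Among the 7 members of the doublet lumen and inner junction, Cfap77 and Cfap126 rose (28.6%, beside 10.3% of all tested genes) and 5 did not pass, with a median log2 fold change of 0.26. Cfap45, which stabilises the doublet from inside, had 230.3 to 289 CPM in the -/- and 169.6 to 249.8 in the +/+ libraries (log2 fold change 0.30, edgeR adjusted p = 0.134). Without +/+ replicate 3, its highest +/+ library, its edgeR adjusted p was 0.00588. Cfap53, a lumen protein also needed for outer dynein arms, had 107 to 149 against 96.1 to 113 CPM (0.26, adjusted p = 0.128, and 0.0374 without -/- replicate 4). Cfap52 had a log2 fold change of 0.10. Cfap161 (-0.06) and Cfap20 (-0.07), the inner junction protein, were below 0, and both turned above 0 when 1 +/+ library was left out, replicate 3 for Cfap161 and replicate 1 for Cfap20. Cfap20 had 116 to 117 CPM in the -/- libraries, the tightest values of any tested member there (coefficient of variation 0.403%), and 110.3 to 135 CPM in the +/+ libraries.

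Of the 8 members of the central apparatus, Cfap221 rose (12.5%, close to the 10.3% of all tested genes) and 7 did not pass, with a median of 0.04. Cfap69, needed for the sperm flagellum, had 326 to 418 CPM against 284 to 327 CPM (log2 fold change 0.27, edgeR adjusted p = 0.0637). It passed with DESeq2 (adjusted p = 0.016), without a filter on low counts (0.0325), and without -/- replicate 4 (0.0245) or +/+ replicate 3 (0.0198). The C1d proteins are coded by Cfap221, Cfap54, Cfap74 and Cfap46, and their log2 fold changes were 0.25, 0.16, -0.11 and -0.13. Of these, Cfap221 alone passed the test (edgeR adjusted p = 0.533, 0.367 and 0.239 for the other 3). Cfap99 was at 0.11, Cfap70 at -0.04 and Cfap65 at -0.05, with edgeR adjusted p-values of 0.399, 0.784 and 0.635. Cfap65 (657 to 755 CPM over the 8 libraries) and Cfap46 were among the most even members within both labels.

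Of the 7 members at the inner dynein arms and the base of the radial spokes, Cfap100 rose (14.3%, near the 10.3% of all tested genes) and 6 did not pass, with a median of 0.19. Cfap61, a subunit of the calmodulin-associated complex at the spoke base, had 7.52, 12.9, 13.8 and 7.50 CPM in the -/- and 8.97, 7.63, 3.29 and 8.17 CPM in the +/+ libraries. Its libraries scattered widely within both labels, and the log2 fold change of 0.57 had an SE of 0.293 (edgeR adjusted p = 0.258). Cfap206 had 791, 835, 824 and 653 against 739, 636, 574 and 673 CPM (log2 fold change 0.24, edgeR adjusted p = 0.152, and 0.0275 without -/- replicate 4). Cfap43 and Cfap44 code for the tether complex of the dynein f head, and their log2 fold changes were 0.10 and 0.19 (edgeR adjusted p = 0.442 and 0.301). Cfap43 was nearly constant in the +/+ libraries at 312 to 316 CPM and ranged from 293 to 359 CPM in the -/- libraries. Its exons overlap those of Itprip on the same strand over 2.32% of their bases. Cfap57, which links inner dynein arms, was at 0.02, and at -0.02 with library size alone as the scaling. Cfap73 had a log2 fold change of -0.28 (SE 0.214, edgeR adjusted p = 0.453), with +/+ replicate 1 at 2.37 CPM and the other 7 libraries at 1.33 to 1.60 CPM. Its exons overlap those of Ddx54 on the opposite strand over 8.47% of their bases.

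Ratios within pairs of related members were also taken. The log2 ratio of Cfap100 to Cfap73, the pair that forms the inner arm modifier, was 4.42 ± 0.15 in the -/- and 2.93 ± 0.46 in the +/+ libraries (SD, n = 4). That of Cfap43 to Cfap44 was 1.90 ± 0.17 and 2.00 ± 0.14. Cfap97d1 and Cfap97 are both relatives of the fly flagellar protein Hemingway, and their log2 ratio was -4.59 ± 0.55 and -6.54 ± 0.83. These ratios of CPM were chosen after the values were seen and are given as a description.

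Of the 9 members with roles in assembly, at the basal body or elsewhere in the flagellum, 8 were tested. Cfap97d1, Cfap58 and Cfap157 rose (37.5%, beside 10.3% of all tested genes), 5 did not pass, and the median was 0.06. Besides Cfap300, those were Cfap36 (log2 fold change 0.05), Cfap97 (0.04), Cfap299 (0.01) and Cfap298 (-0.06), with edgeR adjusted p-values of 0.821, 0.848, 0.974 and 0.804. All 4 changed sign when a library was left out, and Cfap299 also with library size alone as the scaling (-0.03). They nevertheless differed in level, from 71.7 to 106 CPM for Cfap299 to 570.2 to 797 CPM for Cfap36 over the 8 libraries.

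**Figure D3:**
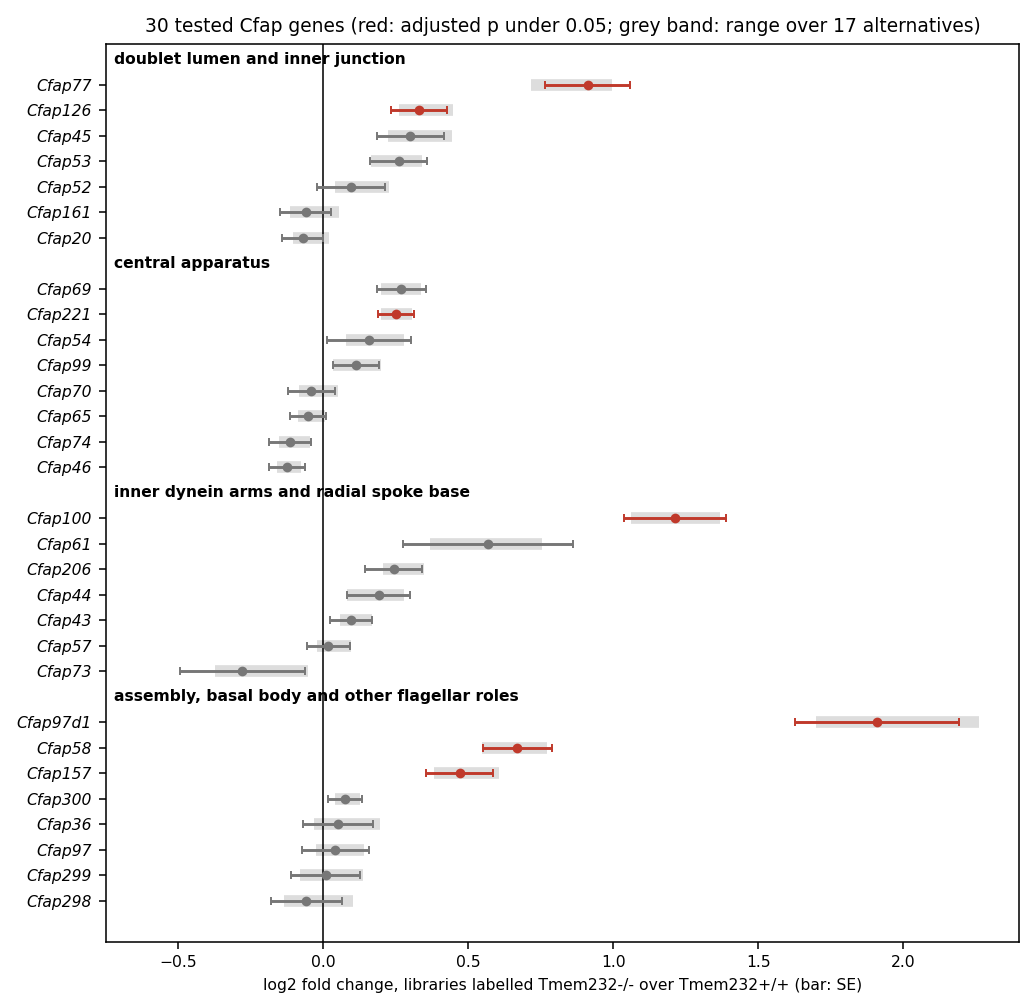
Log2 fold change of the 30 tested Cfap genes, -/- over +/+ label, by role, with SE as bars, called genes in red and the range over the 17 other settings as a grey band. The 4 largest called rises, from 0.67 for Cfap58 to 1.91 for Cfap97d1, stay clear of 0 over their bands, while 9 members have bands that cross 0.

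Other features of the members were compared as a description. By level, 6 of the 7 called genes ranked between 19 and 29 of the 31 members by mean FPKM, with Cfap126 (rank 7) as the exception. The called genes had a median coding length of 1570 bases and 9 exons, and the other 23 tested members 1870 bases and 14 exons, by the GENCODE annotation of GRCm38. None of the called genes had a coding length over 2619 bases, while the other members reached 9513 bases in Cfap54.

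Within each label, members fell into sets that were high or low in the same libraries. In the +/+ libraries, replicate 3 was the highest of the 4 for 15 of the 30 tested members and the lowest for 12. It was highest for Cfap97d1, Cfap298, Cfap100, Cfap36, Cfap45 and Cfap157, and lowest for Cfap61, Cfap54, Cfap52, Cfap97, Cfap44 and Cfap206. In Cfap97d1 its log2 ratio to the mean of the other 3 was 1.00, and in Cfap61 it was -1.33. In the -/- libraries, replicate 1 was the highest for 15 members and the lowest for 0, and replicate 4 was the lowest for 19 and the highest for 1. Of the 15 members for which +/+ replicate 3 was highest, -/- replicate 1 was the highest of its label for 12. Of the 12 for which +/+ replicate 3 was lowest, -/- replicate 1 was highest for 1 and -/- replicate 4 was lowest for 10. The like counts over all tested genes were not taken. Over all tested genes, deviations from the label means of -/- replicate 1 and +/+ replicate 3 correlated at 0.393, the highest value across the labels. The pattern is thus not shown to be particular to the Cfap genes.

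**Figure D4:**
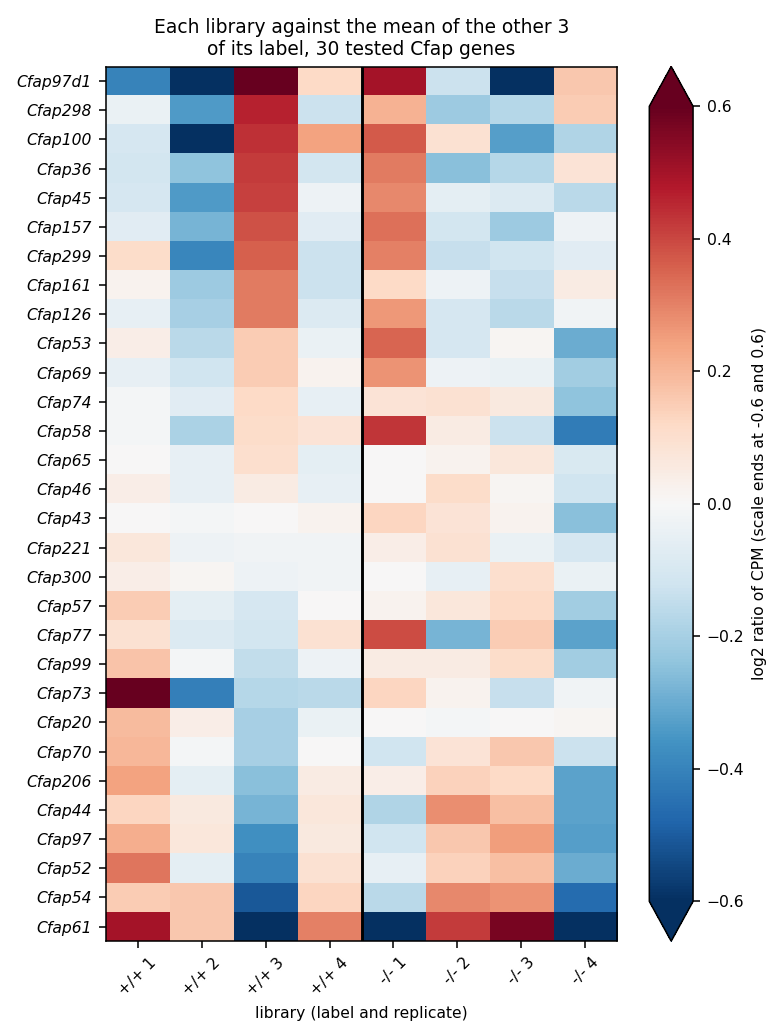
Log2 ratio of each library's CPM to the mean of the other 3 libraries of its label, for the 30 tested Cfap genes ordered by +/+ replicate 3, with red above and blue below that mean. In +/+ replicate 3 the ratio runs from 1.00 in Cfap97d1 to -1.33 in Cfap61, and -/- replicate 4 is the lowest of its label for 19 genes.

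Spermatid markers were also higher in the -/- libraries, and their order of libraries within each label was set beside that of the members. How many of all tested genes follow these orders was not counted. The summed CPM of the 10 elongating spermatid markers was 2207, 1754, 1335 and 2062 in -/- replicates 1 to 4 and 441, 340.0, 687 and 498 in the +/+ replicates. Within both labels, Cfap97d1 and Cfap157 ordered the 4 libraries exactly as this sum did, and these were 2 of the 30 tested members. Cfap100, 1 of the 30, ordered them as the summed round spermatid markers did (701, 582, 514 and 551 against 255, 212, 337 and 282 CPM). Cfap58, Cfap36, Cfap45 and Cfap69 followed the order of both sums in the +/+ libraries and of neither in the -/- libraries. In the -/- libraries alone, Cfap126 and Cfap161 followed the elongating spermatid sum and Cfap73 the round spermatid sum. Cfap77 followed neither sum within either label, and its lowest +/+ library was replicate 3, where the elongating markers were highest. Of 6 markers of multiciliated epithelium, Mcidas, Gmnc and Cdhr3 were at or near 0 (at most 0.333 CPM on average) and were not tested. Of the 3 tested, Deup1 was higher (148 against 81.2 CPM, log2 fold change 0.86, edgeR adjusted p = 0.000135). Tppp3 and Ccno did not pass. The summed level of these markers was 143 to 189 against 88.5 to 106 CPM. The part of the spermatid stages in the changes of Cfap genes was not tested.

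**Figure D5:**
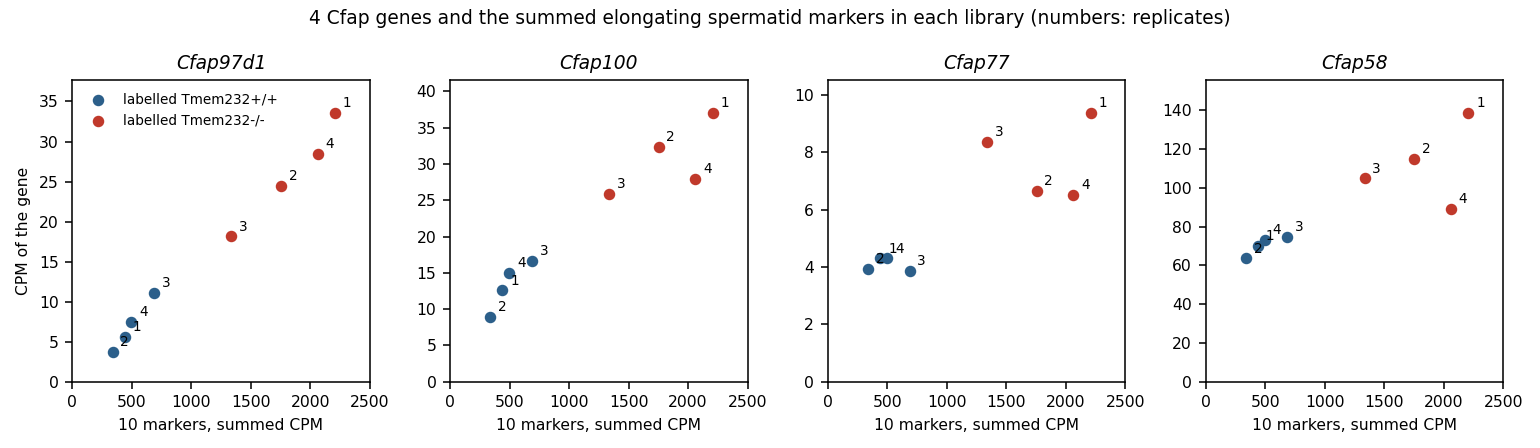
CPM of Cfap97d1, Cfap100, Cfap77 and Cfap58 (vertical axes) against the summed CPM of 10 elongating spermatid markers (horizontal axes), with 1 point per library, numbered by replicate, +/+ in blue and -/- in red. The marker sum is 340.0 to 687 CPM in the +/+ and 1335 to 2207 CPM in the -/- libraries, and Cfap97d1 orders the libraries of both labels as it does while Cfap77 does not.

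Axonemal genes under other symbols give the setting for the members. Of 41 such genes in the table, all tested, 10 were higher and 0 lower at an adjusted p under 0.05 with edgeR (24.4%, beside 10.3% and 1.46% of all tested genes), and DESeq2 and limma-voom also called 0 lower. At an unadjusted p under 0.05, 16 were higher and 0 lower, beside 14.6% and 10.5% of all tested genes. Their median log2 fold change was 0.17, and without +/+ replicate 3 the number called higher was 16. Of the 10 rises, 7 were among the 16 genes of the doublet lumen (43.8%). Efhc2 had 32.0 ± 5.88 CPM in the -/- and 15 ± 0.824 CPM in the +/+ libraries (log2 fold change 1.10, edgeR adjusted p = 0.000157). The tektins, filament proteins of the doublet, followed with Tekt5 (0.81), Tekt2 (0.55) and Tekt4 (0.40), while Tekt1 and Tekt3 had 0.19 and 0.18 and did not pass. 1700007K13Rik (0.71) and Ribc1 (0.70) also rose.

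Of 10 central apparatus genes, Spag6 (log2 fold change 0.86, edgeR adjusted p = 0.00055) and Mycbpap (0.47, 0.00159) rose, 2 of 10 beside 10.3% of all tested genes, with a median of 0.16. Spag6l, a close relative of Spag6 with which it may share reads, had a log2 fold change of -0.03. Of 15 genes of the nexin-dynein regulatory complex, the ruler and the spoke base, Maats1 alone passed (6.67%, under the 10.3% of all tested genes, log2 fold change 0.26, edgeR adjusted p = 0.0349), and it lost its call in 5 of the 8 fits without a library (adjusted p up to 0.0999). Maats1 codes for CFAP91 and Wdr66, at -0.05, for CFAP251, subunits of the same spoke base complex as CFAP61.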

How the data were processed

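Total RNA from 8 testes, 4 per label, was sequenced in paired-end mode, and the labels and headers gave each column its genotype and replicate number. Each library is that of a different mouse. The authors mapped reads to GRCm38.p6 with HISAT and Bowtie2 and counted them with StringTie and featureCounts. The deposited values are estimated counts without normalization, and 10.71% to 11.2% of genes per library had a count more than 1e-09 from a whole number. The authors also deposited expression values whose header names no unit. These deposited values were taken as FPKM, counts that the authors divided by transcript length and library total, because in genes with 1 transcript, the ratio of count to value differed between libraries as the total counts did. The authors' columns of fold changes and p-values, made with DESeq2, were not used.

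Counts were rounded and tested with edgeR 4.0.16 in R 4.3.3 (filterByExpr, TMM, quasi-likelihood test, no covariates, Benjamini-Hochberg adjustment over 15787 genes). For single genes an exact permutation test used all 70 arrangements. Other settings were DESeq2 1.42.0 or limma-voom (limma 3.58.1) as the test, scaling by DESeq2 size factors, by library size alone or after removal of the 10 most abundant genes, and filters of none or of 10 counts in every library. FPKM was tested with limma as log2 of the value plus 1. The replicate number was also tried as a block, and libraries were left out in turn. The steps were tested on simulated data. Figures and sums were made in Python 3.11.15 with pandas 2.3.3 and numpy 2.4.6.

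The members, the lists of roles, axonemal genes and markers, and the rules were chosen with earlier results of these data known. Values per library were given for members with an adjusted p under 0.05 and an absolute log2 fold change of at least 0.5, the 3 tested members with the highest and the 3 with the lowest mean FPKM, and Cfap58. Any others were chosen after their values were seen. Coordinates are those of RefSeq genes on GRCm38.p6, and exon overlaps and coding lengths those of GENCODE on GRCm38. The strand column of the deposited table differed from RefSeq for some members and was not used. Some items of the gene lists and annotation are not reported here.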

Additional observations from a re-analysis of the deposited data

Results flagged for a closer look

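Of the 62 groups of 4 libraries tested, 31 members in 2 labels, 4 held a library set apart from the other 3 by a gap past Dixon's limit for 4 values, where chance gives about 3.1. Cfap74 was low in -/- replicate 4, at 190.1 CPM against 223 to 227 CPM in the other 3 (the gap was 0.897 of the whole range). Cfap54, another gene of the C1d projection, was low in +/+ replicate 3, at 74.5 CPM against 105 to 107 CPM (0.944). Cfap221 was high in +/+ replicate 1, at 41.6 CPM against 39.6 to 39.8 CPM (0.88), and this library was the nearest to the -/- libraries. Cfap299 was high in -/- replicate 1, at 103 CPM against 82.7 to 85.7 CPM (0.856). The causes were not tested.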

How the results depend on the processing

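The number of Cfap genes higher was 6 to 8 under DESeq2, limma-voom, the other scalings, the other filters and FPKM, and 4 to 9 with each library left out (4 without -/- replicate 1, +/+ replicate 2 or +/+ replicate 4). That of the related axonemal genes was 9 to 14 under those settings, 7 to 16 with each library left out and 16 without +/+ replicate 3, and the median log2 fold change of the Cfap genes was 0.064 to 0.158 under those settings and 0.088 to 0.213 with each library left out. No member was called lower in any of these fits. The cause of these shifts was not tested. Replicate numbers did not pair the libraries: deviations from the label means over all tested genes correlated at -0.06, 0.07, -0.33 and -0.11 for numbers 1 to 4. The highest correlation across the labels was 0.393, for -/- replicate 1 and +/+ replicate 3. With the replicate block 4 Cfap genes and 8 related genes were higher.

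Of 510 values of single members under alternatives, 466 kept their direction and side of the threshold, 18 lost and 7 gained a call, and 19 in 9 genes, none of them called, changed sign. With library size alone Cfap299 was at -0.026 and Cfap57 at -0.016, with FPKM they were at -0.0037 and -0.021, and without a filter Cfap70 was at 0.0038. Across the fits that left out a library, log2 fold changes were -0.114 to 0.053 for Cfap161, -0.087 to 0.020 for Cfap20, -0.136 to 0.102 for Cfap298, -0.080 to 0.137 for Cfap299, -0.032 to 0.198 for Cfap36, -0.012 to 0.097 for Cfap57, -0.071 to 0.0053 for Cfap65, -0.082 to 0.052 for Cfap70, -0.025 to 0.141 for Cfap97 and -0.064 to 0.030 for Wdr66. The lowest count of a member tested in the main fit was 21 in a library, in Cfap73. Cfap97d2, with 4 to 8 counts, entered the fit without a filter on low counts, with 31 members, and its value there is not given.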
